A study of Homo sapiens with 3 samples.

Results

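The genes described here are the 9 listed members of the FOS, JUN, ATF and BATF families whose proteins form AP-1: FOS, FOSB, FOSL1, FOSL2, JUN, JUNB, JUND, ATF3 and BATF. They were taken by name from 20037 protein-coding genes of the RefSeq table (GRCh38.p14), and all 9 were found. Every summit of the SP1 and H3K27ac lists within 100 kb of each gene span was collected, which gave 33 of 5570 SP1 summits and 5 of 3201 H3K27ac summits. The cells were H1299, an established human non-small cell lung cancer line that lacks p53, with no treatment named in the labels. In the CUT&RUN assay used, an antibody brings a nuclease to its target in nuclei and the DNA it cuts free is sequenced. The transcription factor SP1 was profiled in 1 library, and 1 further library was made with an antibody against H3K27ac, the acetylation of lysine 27 on histone H3 found at active promoters and enhancers. The IgG control library was not analysed here.

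AP-1 is a pair of basic leucine zipper proteins, most often a FOS-type and a JUN-type protein, that binds DNA at the TRE. The TRE proper is TGACTCA or TGAGTCA, and it was searched here in the looser form TGANTCA, where N is any base. JUN-type proteins can also pair with each other, while FOS-type proteins need a partner. FOS, FOSB, JUN and JUNB are immediate early genes, switched on within minutes of growth factor or stress signals through RAS and MAP kinases. In lung cancer cells with active RAS signalling, AP-1 is known as a driver of growth and invasion genes. SP1 is a zinc finger protein that binds GC boxes (GGGCGG) in many promoters, including those of genes expressed in most cells.

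A summit is the single base at the top of a called peak, and the deposited score is −log10 of its p-value or its q-value, with no word in the files on which. Scores are read here only within their own list, where the median was 6.17 for SP1 and 5.01 for H3K27ac. The SP1 upper quartile was 9.04 and the H3K27ac upper quartile 5.95. Ranked regions are the authors' joined peaks with a rank, where 1 is the best, of 2356 for SP1 and 2710 for H3K27ac. They do not hold every summit. Near these genes 6 of the 33 SP1 summits and 4 of the 5 H3K27ac summits lay in a region of their own list. The files hold no read counts, so depth is unknown and a missing summit means that none was called. Since each antibody was used on 1 library only, no value has an error between cultures and no test was made. Main counts of members stand beside the same share over all protein-coding genes, over those of a chromosome or over those with a promoter entry. Counts at changed settings have such a share only at some settings.

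The promoters of FOS and FOSB each held an SP1 summit close to the start site, and no other promoter window of these genes did. RefSeq promoter windows of 300 bases, 250 before and 50 after the start site, were matched for 8 of the 9 genes, with 2 start sites for ATF3 and no entry matched for FOSL1. An SP1 summit lay in the window of 2 of these 8 genes, against 4.14% of 15843 protein-coding genes with an entry. The windows of FOS and FOSB are shown because they hold the summits, and those of JUN and JUND because they have as many or more GC boxes without one. All 4 are on GRCh38.p14, 5′ to 3′ along the gene, and capitals mark GC boxes, GGGCGG or its reverse complement CCGCCC.
FOS, chr14:75278578-75278877, plus strand: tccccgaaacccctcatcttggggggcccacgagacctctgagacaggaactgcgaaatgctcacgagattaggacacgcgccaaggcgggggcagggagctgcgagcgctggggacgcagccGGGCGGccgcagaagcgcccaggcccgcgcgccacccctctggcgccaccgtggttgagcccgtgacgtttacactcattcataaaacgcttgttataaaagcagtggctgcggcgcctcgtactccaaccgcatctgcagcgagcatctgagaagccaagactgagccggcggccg
FOSB, chr19:45467746-45468045, plus strand: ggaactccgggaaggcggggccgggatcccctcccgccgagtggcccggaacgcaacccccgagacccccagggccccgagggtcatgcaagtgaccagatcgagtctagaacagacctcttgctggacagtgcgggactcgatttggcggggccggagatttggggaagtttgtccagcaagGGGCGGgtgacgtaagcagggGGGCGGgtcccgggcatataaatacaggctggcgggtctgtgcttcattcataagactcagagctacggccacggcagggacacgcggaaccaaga
JUN, chr1:58783998-58784297, minus strand: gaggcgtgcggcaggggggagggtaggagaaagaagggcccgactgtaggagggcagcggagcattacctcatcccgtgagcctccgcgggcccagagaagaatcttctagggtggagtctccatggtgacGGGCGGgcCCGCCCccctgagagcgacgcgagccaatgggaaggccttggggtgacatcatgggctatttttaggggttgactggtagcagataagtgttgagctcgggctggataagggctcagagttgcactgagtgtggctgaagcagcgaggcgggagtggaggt
JUND, chr19:18281573-18281872, minus strand: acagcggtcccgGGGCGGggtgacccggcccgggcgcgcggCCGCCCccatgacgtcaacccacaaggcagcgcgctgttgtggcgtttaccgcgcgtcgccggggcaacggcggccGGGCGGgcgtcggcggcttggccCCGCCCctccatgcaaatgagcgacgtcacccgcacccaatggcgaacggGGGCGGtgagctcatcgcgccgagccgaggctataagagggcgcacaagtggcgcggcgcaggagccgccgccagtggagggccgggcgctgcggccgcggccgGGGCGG

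In the FOS window the SP1 summit was base 78 of the 300, at position 75278655, or 173 bases upstream of the start site. In the FOSB window it was base 138, at position 45467883, or 113 bases upstream. Each summit base lay 46 bases from the nearest edge of a GC box, on the side of the start site. Only exact matches were counted, and strings that differ from GGGCGG by a letter can lie nearer to the summit. The FOS window had 1 GC box, 127 to 122 bases before the start site, and the FOSB window had 2. JUND had 6, a number reached by 3.81% of 22199 protein-coding promoter windows, yet no SP1 summit lay within it. JUN had 2 GC boxes 119 to 106 bases before its start site, FOSL2, BATF and the first start site of ATF3 had 1 each, and JUNB and the second ATF3 start site had none. Of all 22199 windows 56.3% held a GC box, and of the 701 with an SP1 summit 79.2% did.

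Other elements were searched in the same windows on both strands. The TATA box (TATAAA) was found 33 to 28 bases before the start site of FOS, 30 to 25 before that of FOSB and 31 to 26 before that of JUNB, against 9.47% of all windows with a match anywhere. The second start site of ATF3 had a match 230 to 225 bases upstream. JUND held the CRE (TGACGTCA), the cyclic AMP response element that JUN and ATF proteins also bind, 200 to 193 bases upstream, an element found in 2.26% of windows. FOSL2 held the TRE TGACTCA, the AP-1 element itself, 4 to 10 bases after its start site. A match to the looser TGANTCA was found in 6.15% of windows. The CArG box, the element of serum response factor, was matched in none of the 9 windows and in 1.25% of all. No match overlapped another. A match is a string of letters and not a measured site, and no match says only that the letters are missing in these 300 bases.

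**Figure D1:**
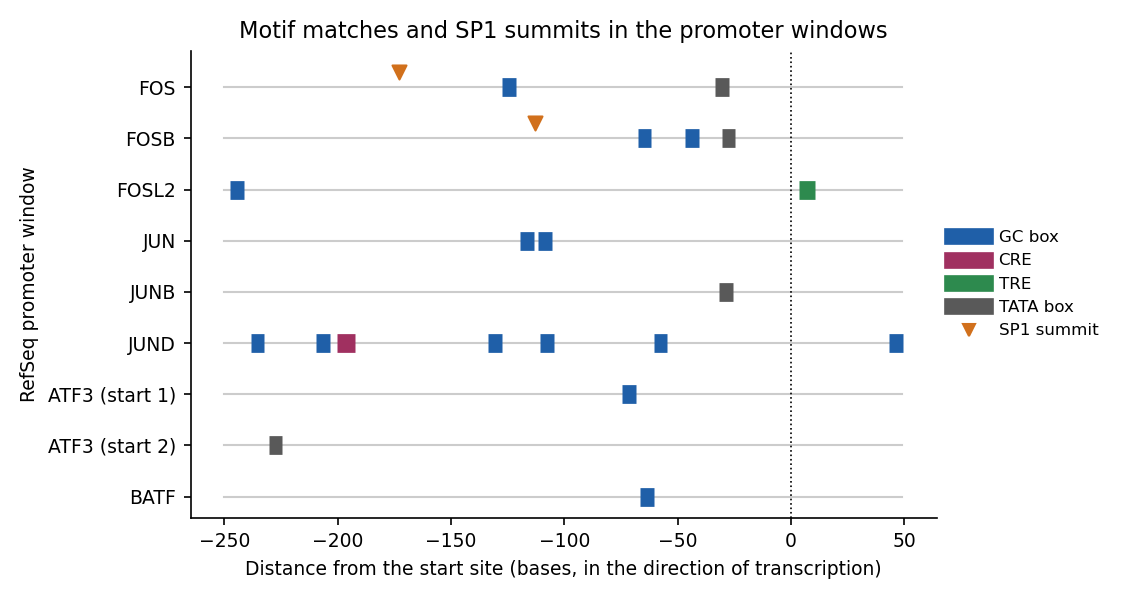
Positions of motif matches (bars) and SP1 summits (triangles) in the 9 RefSeq promoter windows of 8 genes, in bases from the start site in the direction of transcription. The 2 summits, in FOS and FOSB, lie 173 and 113 bases upstream, and JUND has 6 GC boxes and no summit.

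Over whole genes, SP1 summits lay within 1000 bases of an end of FOS, FOSB and FOSL2. These 3 of 9 genes compare with 13.7% of all protein-coding genes, and with 9 genes a difference of this size rests on 1 or 2 of them. On chromosome 19 the count was 1 of 3, against 30.2% of genes there, and elsewhere 2 of 6, against 12.5%. A window of 2500 bases adds FOSL1 and JUNB, which gives 5 of 9, against 15.8% of all genes. A window of 500 bases, or only scores above the list median, drops FOSL2 and leaves 2 of 9. The share of all genes at those settings is not given here. Within 100 kb, 6 of the 9 genes had an SP1 summit, against 52.6% of all genes. All 3 members on chromosome 19 had one, against 84.2% of genes there, and 3 of 6 elsewhere, against 50.1%. These shares are near the background. H3K27ac summits lay within 100 kb of 4 genes, against 24.0% of all, and at the end of none, against 0.848% of all genes. With 0 of 9, the 95% Wilson interval of the share reaches 29.9%. That interval takes the genes as independent draws, which a chosen list is not, and covers no spread between cultures. Ranked regions within 100 kb were found at 2 of 9 genes for SP1, against 22.5% of all genes, and at 3 of 9 for H3K27ac, against 19.4%. Both libraries had summits near FOS, FOSL1 and JUNB, which are 3 of 9 genes, against 14.7% of all. SP1 alone had them near FOSB, FOSL2 and JUND, H3K27ac alone near BATF, and neither near JUN and ATF3.

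The FOS family held 24 of the 33 SP1 summits, the JUN family 9, and ATF3 and BATF none. Chromosome also went with the count. FOSB, JUNB and JUND are on chromosome 19 and had 24 summits, and the other 6 genes had 9. The median number within 100 kb was 3 over the 9 genes and 1 over all protein-coding genes. On chromosome 19 it was 6 for the 3 members and 3 for all 1451 genes, and elsewhere 0.5 for the 6 members and 1 for all 18586 genes. FOSB alone supplied 15 summits, and without it the total was 18.

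**Figure D2:**
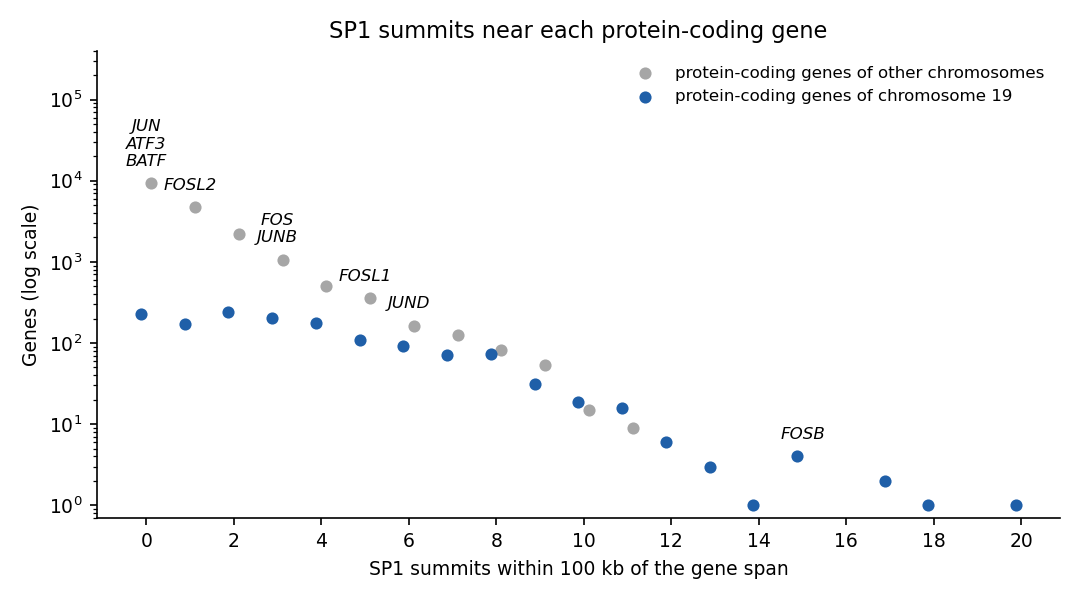
Number of protein-coding genes (log scale) by their number of SP1 summits within 100 kb, for chromosome 19 and for the other chromosomes, with the 9 AP-1 genes named at their count. FOSB stands at 15 summits, a count reached by 8 genes, while JUN, ATF3 and BATF stand at 0.

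FOS encodes the classical FOS-type partner of AP-1 and spans 75278828 to 75282230 on chromosome 14. It had 3 SP1 summits and 1 H3K27ac summit within 100 kb, and no other protein-coding gene overlapped that window. The promoter summit was the highest of the 3, with a score of 12.1, above 86.2% of the SP1 list. One further summit lay 19.9 kb upstream of the start site with a score of 9.49. The third lay 12.5 kb beyond the high-coordinate end, at 75294778, with a score of 8.18, and 374 bases from an end of the long non-coding RNA gene LINC01220. All 3 scored above the list median. None lay in an SP1 ranked region.

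The H3K27ac summit near FOS was at 75314213, or 32.0 kb past the gene, with a score of 6.08, above 79.7% of its list. It formed a ranked region of 219 bases, at rank 1494 of 2710. The nearest SP1 summit to it was the one at LINC01220, 19.4 kb away. That was the closest approach of the libraries to each other near any of the 9 genes.

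FOSB encodes a FOS-type protein known in the brain for its long-lived spliced form. It spans 45467996 to 45475179 on chromosome 19 and had 15 SP1 summits within 100 kb, spread over 136 kb. Only 8 protein-coding genes, or 0.0399% of all and 0.551% of those on chromosome 19, had as many. These genes were FOSB itself, SPTBN4, OPA3, POLR1G, ERCC1, PPP1R13L, RTN2 and PPM1N. Apart from SPTBN4, 4892 kb away, they lie within 61.6 kb of FOSB, so their windows overlap that of FOSB and count some of the same summits.

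Around FOSB the SP1 scores were also high. They ran between 5.66 and 28.7 with a median of 12.4, and 13 of 15 were above the upper quartile of the SP1 list. The promoter summit scored 10.9, above 83.1% of the list. A second summit lay inside the gene, 1665 bases after the start site, with a score of 11.6. Both were lower than the median of the 15. Gaps between neighbouring summits were 427 bases to 28.7 kb, with a median of 8.16 kb.

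The highest of the 15, with 28.7, was 62.7 kb below the low-coordinate end of FOSB, inside PPP1R13L, which encodes an inhibitor of p53-family proteins, and 1015 bases from an end of that gene. Inside ERCC1, a gene of nucleotide excision repair, lay summits of 18.0, 13.5 and 16.0, the last of them 883 bases from an end of the gene. A summit of 8.26 lay 303 bases from an end of ERCC2, a helicase subunit gene of TFIIH. On the other side of FOSB, summits of 16.3 and 10.2 lay 475 and 321 bases from ends of RTN2, a reticulon gene. Those of 12.4 and 11.6 lay 758 and 331 bases from an end of VASP, a regulator of actin. A protein-coding gene end lay within 1000 bases of 7 of the 15.

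SP1 ranked regions within 100 kb of FOSB numbered 3. The best, at rank 2 of 2356, covered 45443014 to 45456398, 11.6 kb from the low-coordinate end, joined 2 peaks and held 3 SP1 summits. The others, of 248 and 239 bases, ranked 155 and 464. A region of the best-ranked 235, the upper 10% of the list, lay within 100 kb of 4.97% of all genes. The promoter summit of FOSB was in no region. No H3K27ac summit lay within 100 kb of FOSB, and the nearest was 121 kb from its low-coordinate end with a score of 4.55. The same window thus held 15 SP1 calls and no H3K27ac call. Most genes lack such a call, since 18.4% of chromosome 19 genes and 24.0% of all genes had an H3K27ac summit within 100 kb.

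**Figure D3:**
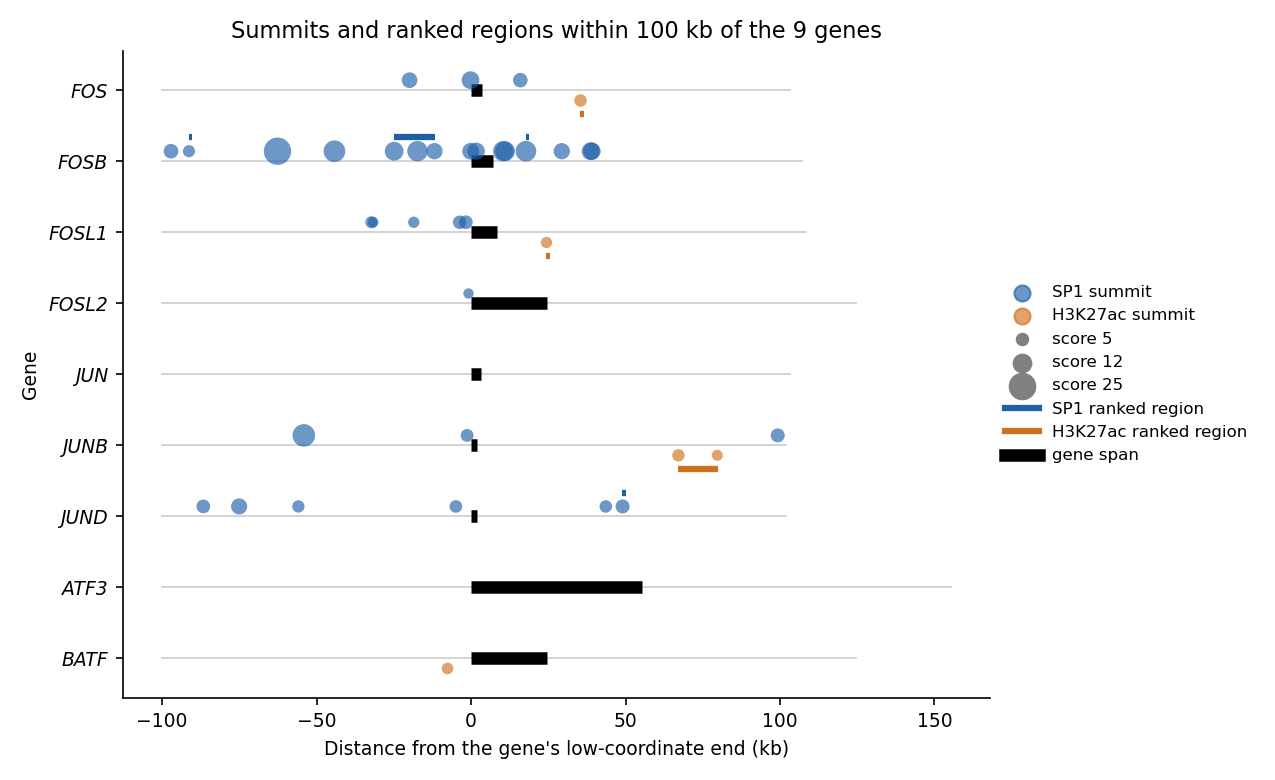
SP1 summits (above each line) and H3K27ac summits (below) within 100 kb of each gene, by distance from the gene's low-coordinate end in kb, with circle area scaled to the score. Bars mark ranked regions, drawn at least 1.2 kb wide so that short ones can be seen, and black bars the gene spans. FOSB has 15 SP1 summits and no H3K27ac summit, and JUN and ATF3 have neither.

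FOSL1 encodes FRA1, a FOS-type protein known for its role in invasion of carcinoma cells. It spans 65892049 to 65900545 on chromosome 11, in a window with 14 other protein-coding genes. Its 5 SP1 summits scored 5.59, 4.40, 4.90, 7.00 and 7.25 in order of position, all on the low-coordinate side and none above the upper quartile. Each of the 5 lay within 1000 bases of an end of another gene. The nearest, of 7.25, was 1670 bases from FOSL1 and 294 bases from an end of CCDC85B. The next was 119 bases from an end of FIBP, and the others were at EFEMP2, a matrix protein gene, and MUS81, a DNA repair nuclease gene, which had 2. No SP1 summit was thus called nearer to an end of FOSL1 than to an end of a neighbour.

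The H3K27ac summit near FOSL1 lay on the other side of the gene, at 65916405, or 15.9 kb from the high-coordinate end. Its score of 4.94 was below the list median. Its region of 288 bases nevertheless ranked 237 of 2710. A region of the best-ranked 271, the upper 10%, lay within 100 kb of 2 of the 9 genes, FOSL1 and JUNB, against 2.20% of all genes. The summit was 405 bases from an end of C11orf68 and 26.0 kb from the nearest SP1 summit.

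FOSL2 encodes FRA2, which has roles in bone and epithelial cells. It spans 28392858 to 28417317 on chromosome 2 and had 1 SP1 summit within 100 kb, at 28392027, or 831 bases upstream of the start site. Its score of 4.11 was above 11.8% of the SP1 list and was the lowest of the 33. It lay inside the span of the antisense gene FOSL2-AS1. No H3K27ac summit was called within 100 kb, and the nearest was 593 kb away.

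Within the FOS family the summits at an end thus scored 12.1 in FOS, 10.9 in FOSB and 4.11 in FOSL2, and FOSL1 had none within 1000 bases. With 1 library, the order of FOS and FOSB cannot be set against any spread.

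JUN encodes c-Jun, the JUN-type protein with a potent transactivation domain, and spans 58780791 to 58784047 on chromosome 1. No summit of either library lay within 100 kb of it. The nearest SP1 summit was 235 kb away and scored 4.40, at 772 bases from an end of DAB1. The nearest H3K27ac summit was 156 kb away with a score of 5.72. Such a gap was found at 2 of the 9 genes, JUN and ATF3, and 38.1% of all protein-coding genes had no summit of either library within 100 kb.

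JUNB, which encodes a JUN-type protein that can restrain c-Jun, spans 12791486 to 12793315 on chromosome 19. It had 3 SP1 summits. The nearest, with a score of 6.39, was 1271 bases upstream of the start site and inside the neighbouring gene HOOK2. The highest, of 19.6, was 54.1 kb upstream and 246 bases from an end of GET3, which acts in membrane insertion of tail-anchored proteins. The third, of 7.51, lay 97.4 kb past the gene and 375 bases from an end of GCDH, a mitochondrial dehydrogenase gene. All 3 scored above the list median, and 55.7% of chromosome 19 genes had as many summits or more.

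Near JUNB lay the best-ranked H3K27ac region of these genes. It covered 12858457 to 12871295, or 12.8 kb, joined 2 peaks and ranked 32 of 2710. It began 65.1 kb past JUNB and overlapped MAST1, a kinase gene. A region of that rank or better lay within 100 kb of 49 genes, or 0.245% of all. Its 2 summits scored 5.94 and 4.68, the first above and the second below the list median. No SP1 summit lay in it, and the nearest was 19.5 kb from its edge.

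JUND encodes a JUN-type protein present in many resting cells and spans 18279694 to 18281622 on chromosome 19. It had 6 SP1 summits, with scores of 7.21, 10.04, 5.80, 6.17, 6.04 and 7.56 in order of position. The nearest, of 6.17, lay 4903 bases from its low-coordinate end, where the gene ends, and 339 bases from an end of IQCN. On the same side lay those at MPV17L2, at the GTPase gene RAB3A and inside the phosphodiesterase gene PDE4C. On the upstream side one was 236 bases from an end of LSM4, an RNA-binding protein gene of the splicing machinery. The last formed a region of 261 bases at rank 495 of 2356. Of the 6 summits 1 was above the upper quartile, and 22.2% of chromosome 19 genes had as many. The nearest H3K27ac summit was 1681 kb away.

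ATF3 encodes a stress-induced factor that pairs with JUN proteins, and spans 212565407 to 212620777 on chromosome 1. It had no summit of either library within 100 kb. The nearest SP1 summit was 530 kb away with a score of 8.89, 135 bases from an end of INTS7. The nearest H3K27ac summit was 997 kb away. Its nearest SP1 summit was the most distant among the 9 genes, and its nearest H3K27ac summit was exceeded in distance only by that of JUND.

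BATF encodes a small factor without a transactivation domain that pairs with JUN proteins, best known in lymphocytes. It spans 75522469 to 75546992 on chromosome 14, 240 kb from FOS. It had 1 H3K27ac summit, 7859 bases upstream of its start site, with a score of 5.18, above 57.7% of the list. That was the H3K27ac summit closest to an end of any of the 9 genes, and it was in no ranked region. The nearest SP1 summit was 228 kb away and was the summit at LINC01220 next to FOS.

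**Figure D4:**
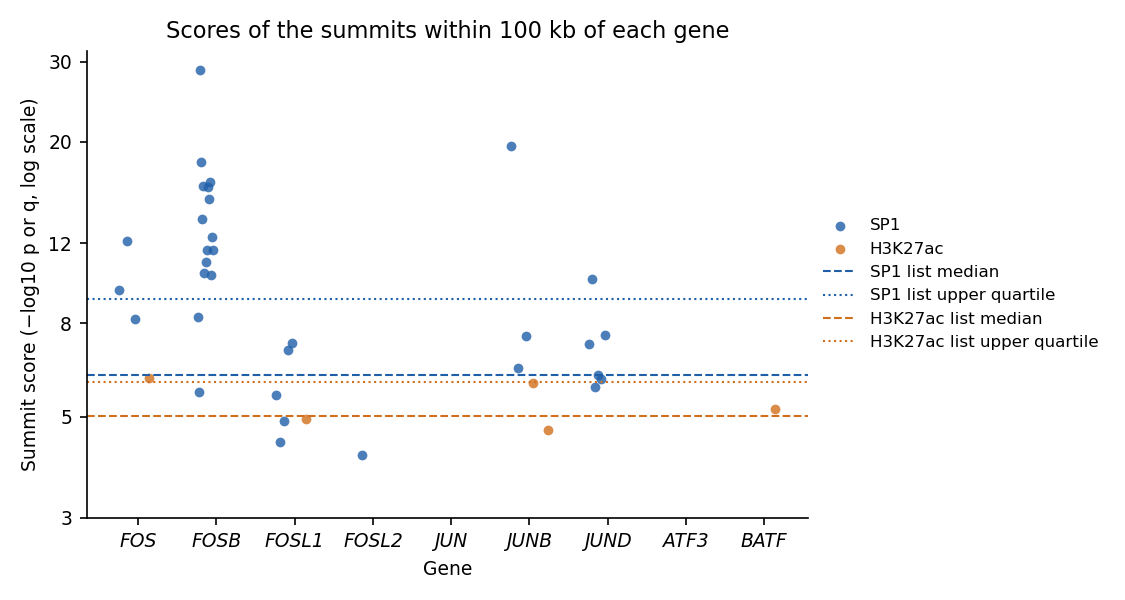
Scores (−log10 of p or q, log scale) of all 33 SP1 and 5 H3K27ac summits within 100 kb of each gene, with the median and upper quartile of each whole list. Scores can be read only against the lines of the same colour, and 13 of the 15 SP1 summits at FOSB lie above the SP1 upper quartile of 9.04.

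Over all 33 SP1 summits the median score was 9.49, and 17 of them, 51.5%, were above the upper quartile of the list. Of those 17, FOSB supplied 13. A protein-coding gene end lay within 1000 bases of 20, or 60.6%, against 44.1% of all SP1 summits. In 3 cases it was the end of the AP-1 gene itself and in 17 that of another gene. Of the 5 H3K27ac summits 1 was at a gene end, that of C11orf68, and 4.69% of the whole H3K27ac list were at one. The summits near these genes were taken for lying within 100 kb of a protein-coding gene, and the whole lists were not limited in that way. These shares are therefore not like for like, and a higher share near the genes is built into the rule. No SP1 summit lay within 500 bases of an H3K27ac summit near these genes. The share over the whole lists is not given here, so with 5 H3K27ac summits this count sets nothing apart at these genes.

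The median distance from a gene end to the nearest SP1 summit was 1.67 kb over the 9 genes and 88.7 kb over all protein-coding genes. It was 1.27 kb for the 3 members on chromosome 19 and 12.4 kb for all genes there. For the 6 members elsewhere it was 115 kb, and 102 kb for all genes of the other chromosomes. The 9 values fell into 6 of 113 bases to 4.90 kb and 3 of 228 to 530 kb. The median was 47.1 kb when only summits above the median score were used, since the nearest ones of FOSL2 and JUND then drop out. That of JUND, 4.90 kb away, scored 6.17, exactly the list median, so the 47.1 kb rests on leaving out this tie. The median over all genes at this setting is not given here. For H3K27ac the median was 121 kb over the 9 genes and 320 kb over all genes. Its values ran between 7.86 kb for BATF and 1681 kb for JUND.

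**Figure D5:**
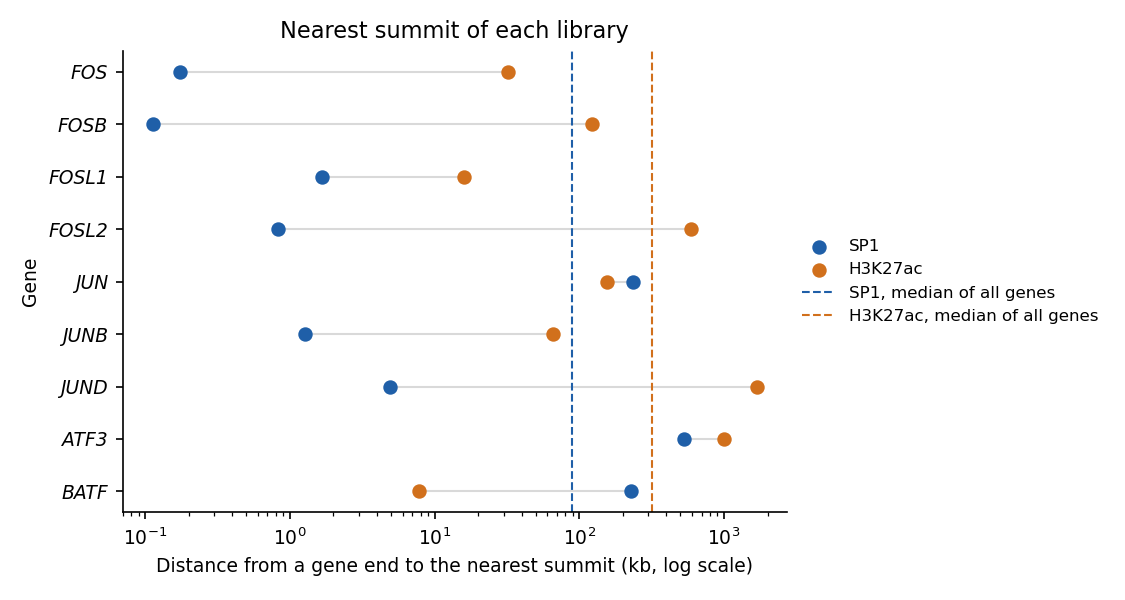
Distance in kb (log scale) from an end of each gene to the nearest SP1 and H3K27ac summit, with the medians over all protein-coding genes as dashed lines. SP1 is nearer than H3K27ac at 7 genes, and at JUN and BATF H3K27ac is nearer. The SP1 list is the longer one, and over all protein-coding genes the medians are 88.7 kb for SP1 and 320 kb for H3K27ac.

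Genes related to AP-1 were counted in the same way, by an SP1 summit within 1000 bases of a gene end, beside the 13.7% of all genes. Of 20 other leucine zipper partners 6 had one, with ATF7 at 27.5, NFE2L1 at 13.3, ATF5 at 11.0 and ATF2, a partner of c-Jun, at 9.93. Of 19 genes that act upstream of AP-1, 4 had one. They were SRF at 11.6, the factor that binds the serum response element of FOS, the JNK pathway kinase genes MAP2K7 at 10.7 and MAP2K4 at 6.13, and MAPK14, which encodes p38 alpha, at 4.50. Of 19 other immediate early genes 3 had one, ZFP36 at 11.0, EGR1 at 10.6 and DUSP1, a MAP kinase phosphatase gene, at 7.68. Of 18 genes known as AP-1 targets 2 had one, VEGFA at 8.52 and HMGA1 at 6.08. H3K27ac summits were found at an end of no gene of these 4 lists, against 0.848% of all protein-coding genes. With so low a share, their absence does not set these lists apart. The median number of SP1 summits within 100 kb was 1 in each list, as over all genes.

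The labelled cell type cannot be checked from called summits, which are not expression. Of 8 lung adenocarcinoma and airway markers, NAPSA had an SP1 summit at an end, with a score of 6.69. None of 4 mesenchymal and none of 3 blood cell markers had one, and no marker had an H3K27ac summit at an end. For comparison, the share with such an SP1 summit was 13.7% among all protein-coding genes and 30.2% among those of chromosome 19, where NAPSA lies, and for H3K27ac it was 0.848% among all. With these shares and so few markers, the counts do not set any list apart from other genes.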

How the data were processed

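CUT&RUN libraries with antibodies against SP1 and H3K27ac in H1299 cells were used, and 1 further library (IgG) was not analysed here. The authors deposited summits with a −log10 p-value or q-value and ranked regions whose score column is a rank (every whole number once, tested on the files). The submitters' processing notes name hg38 and list cutadapt 2.5 and deepTools 3.4.1 without their roles. For the aligner, peak caller, threshold and control, the sources used here give nothing. These choices set which summits are listed, and a summit below the threshold cannot be seen.

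From the files, distances to RefSeq GRCh38.p14 gene spans and start sites were computed with Python 3.11.15 and pandas 2.3.3, with positions 1-based. A gene end is either end of a span, within 1000 bases. Shares have Wilson intervals from scipy 1.17.1. Counting was tested on simulated data. The 9 genes and all lists were chosen with earlier results of these data known. Genes named are these 9, genes with an end within 1000 bases of a summit near them, and up to 4 genes per related list by score. The other neighbouring genes, genes around the nearest distant summits and those with as many summits as FOSB were named after their values were seen. With 1 library per antibody no test was made.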

Additional observations from a re-analysis of the deposited data

How the results depend on the processing

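No paired analysis was possible because SP1 and H3K27ac were each profiled in 1 library. Of 32 alternative values 16 moved, meaning a count or distance by over 1.5 times or a share outside its 95% Wilson interval, and none could change sign. The interval served only as a fixed limit, since neighbouring genes share summits and are not independent. SP1 was at an end of 5 genes within 2500 bases (15.8% of all genes), since FOSL1 and JUNB then enter. Within 500 bases the count was 2, since FOSL2 then drops out. It was also 2 with scores above the list median and with scores above the upper quartile. Within 25 kb the genes had 18 SP1 summits and 2 H3K27ac summits at 2 genes, and 1 gene had an H3K27ac region. Within 50 kb, and also with scores above the median, there were 3 H3K27ac summits. The share of all genes at 500 bases, 25 kb, 50 kb or with score limits is not given here. How far such counts fall at other genes is therefore not shown. The median distance to SP1 was 47.1 kb with scores above the median, where a JUND summit tied with the list median was left out. From start sites alone it was 4.05 kb over 8 of the 9 genes. FOSL1 has no entry there, so the set of genes changed as well. Without FOSB, a setting chosen after seeing the data, 18 SP1 summits were left. Shares on chromosome 19 and on the others were 30.2% and 12.5% for SP1 at an end and 84.2% and 50.1% within 100 kb. On chromosome 19 they were 18.4% for H3K27ac summits and 13.6% for H3K27ac regions. Narrower windows and fewer summits lower counts by construction, and for the chromosomes the cause was not tested. What the unknown depth limits cannot be given.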

Other observations

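Some SP1 summits near the AP-1 genes lay at non-coding genes. Counting genes of every kind, 24 of the 33, or 72.7%, had a gene end within 1000 bases, against 50.6% of all 5570 SP1 summits. For protein-coding genes 20 of the 33 did, against 44.1% of all. These shares are a description of a few neighbourhoods and carry no test. They are also not like for like, since lying near a protein-coding gene was a condition for the 33 and not for the whole list. Between FOSB and RTN2 lay 2 summits on either side of TRU-TCA1-1, the gene of a selenocysteine transfer RNA. They were 178 and 310 bases from its ends and scored 15.9 and 15.0, both above the promoter summit of FOSB. The summit with a score of 7.56 upstream of JUND was 19 bases from an end of the non-coding gene LOC124904654. That of 10.04 downstream of JUND was 97 bases from an end of LOC102725254 and 591 bases from one of RAB3A.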
